A study of Mus musculus with 6 samples.

Results

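The elastic fibre genes described here are 10 genes, chosen by name for their part in building or crosslinking elastic fibres, out of 55335 genes in the count table of a mouse aorta RNA-seq series. They are the elastin gene Eln, the fibrillin genes Fbn1 and Fbn2, the microfibril and fibre surface genes Mfap4 and Emilin1, the fibulin genes Fbln2, Fbln5 and Efemp2, and the crosslinking enzyme genes Lox and Loxl1. The rule names genes and uses no measured value, though it was set with earlier results of these data known. Of the 10, 9 passed the filter on low counts and were tested, and Fbn2 did not.

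Aorta was taken from wild-type (WT) C57BL/6 mice (c57b6l in the labels) at 6 weeks, here called young, and at 6 months, here called aged, with 3 libraries per age. The study's methods give the mice as male and the aorta as freed of the surrounding fat, and both ages share genotype and strain. The libraries were made from total RNA of the whole vessel, so smooth muscle, adventitial fibroblasts, endothelium and any remaining fat contribute together. At 6 months a mouse is a mature adult, and the comparison is that of a growing vessel with an adult one.

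An elastic fibre has a core of crosslinked elastin laid down on a scaffold of fibrillin microfibrils. Fibulin-4, the product of Efemp2, and fibulin-5 carry the elastin precursor and the crosslinking enzymes to that scaffold, and lysyl oxidases oxidise lysines so that neighbouring chains join. In the aorta these fibres form the concentric lamellae between layers of smooth muscle cells, and most of the elastin in them is made around birth and in early growth and then lasts for much of life.

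Total counts ranged from 31049632 to 45832185 per library, and genes of the mitochondrial genome took 14.9% to 21.2% of them in young and 23.1% to 30.4% in aged libraries. Levels below are CPM (counts relative to the TMM-scaled library total) unless named otherwise. The labels were borne out as vascular tissue by 7 smooth muscle markers, all detected in every library and summing to between 27985 and 40198 CPM. Young replicate 1 stood apart in its sex-linked genes, with Xist at 305.6 CPM against 0.204 to 0.636 in the other 5 libraries, which goes against the stated sex. Aged replicate 2 stood apart from the other aged libraries in its fibroblast markers, which summed to 1806 CPM there and to 7090 and 5207 CPM in aged replicates 1 and 3, and in its brown adipocyte markers, at 1813 CPM against 66.8 to 524 elsewhere. Where leaving out either library changed a member's value or call by a wide margin, that value is given beside it.

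Across all 16612 genes tested, edgeR's quasi-likelihood test called 0 genes different between the ages at an adjusted p under 0.05, a share of 0%. None of the 9 members tested was called. At an unadjusted p under 0.05 there were 1723 genes, or 10.4% of those tested, and 2 of the 9 members were among them, Eln with a lower and Fbln2 with a higher level in aged aorta. DESeq2 on the same genes called 338, or 2.26% of those it gave an adjusted p, and 1 of them was a member, Eln. The 3 young and 3 aged values did not overlap in 16.5% of the genes tested and in 1 member, again Eln. Of the 9 members 5 were higher and 4 lower in aged aorta, and their median log2 fold change was 0.05 beside 0.02 over all genes tested. Single members ran from -0.94 in Eln to 1.33 in Fbln2. With library totals alone as the scale, which moved the median of all genes to -0.22, 2 members were higher and 7 lower, while 5 lay above that median and 4 below it. The split about the median of all genes was 2 above and 7 below without aged replicate 1, and 3 above and 6 below with limma on log2 FPKM and a pseudocount of 1.

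**Figure D1:**
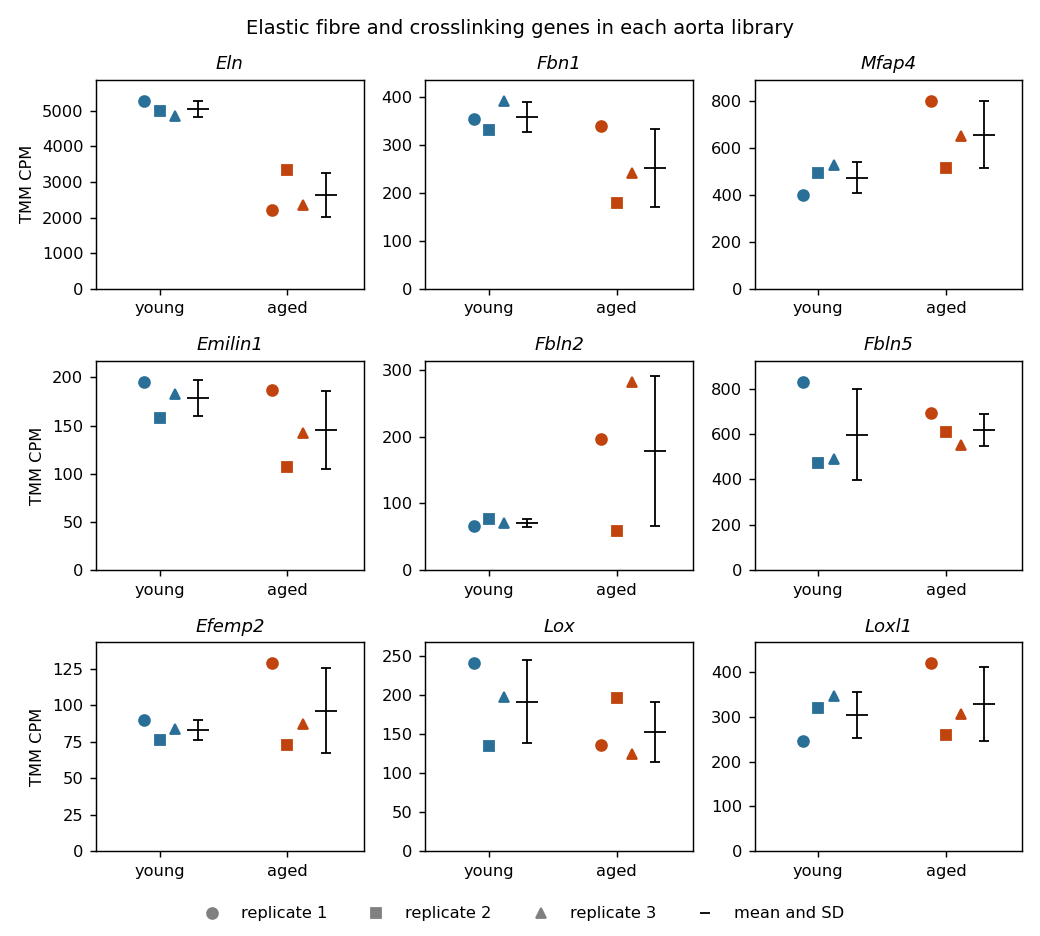
Each panel plots 1 gene, with CPM on the vertical axis from 0, a symbol for each of the 3 young and 3 aged libraries, and the mean and SD beside them. Only in the Eln panel do the aged symbols all lie below the young ones, and in the Fbln2 panel aged replicates 1 and 3 stand at 196 and 282 CPM while aged replicate 2 stays at 59.4 CPM.

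Eln encodes tropoelastin, the soluble precursor of elastin, and lies on chromosome 5 of GRCm38 from 134702593 to 134747323 on the minus strand, with 37 exons in its longest annotated transcript (GENCODE M21). It was at 5279, 5001 and 4835 CPM in young replicates 1, 2 and 3, and at 2210, 3335 and 2357 CPM in aged replicates 1, 2 and 3. The young values lay close together and every aged value lay below all of them, with aged replicate 2 nearest to the young group. The young mean was 5038 ± 225 CPM (SD, n = 3) and the aged mean 2634 ± 612 CPM (SD, n = 3), and the fitted young level was 1.91-fold the aged one. Its log2 fold change of -0.94 had a standard error of 0.21, and the adjusted p was 0.372 by edgeR and 0.00709 by DESeq2, so the call depended on the tool. An exact two-sided permutation test of Eln, without adjustment, gave p = 0.1, the smallest that 3 libraries against 3 can give. Other genes without overlap, such as Ltbp3, had the same value. Without aged replicate 2 the log2 fold change was -1.14 with an edgeR adjusted p = 0.0661, and without young replicate 1 it was -0.89 with an adjusted p = 0.372. The gene took 66588 to 255770 counts per library.

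The microfibril genes did not share one direction. Fbn1, which encodes fibrillin-1, the main microfibril protein of adult vessels, lies on chromosome 2 from 125300594 to 125507993 on the minus strand. It was at 354, 331 and 393 CPM in the young and at 339, 178 and 241 CPM in the aged libraries. Aged replicate 1 lay among the young values and the other aged libraries lay below them, so the groups overlapped. Fbn1 had a log2 fold change of -0.51 with a standard error of 0.25 (edgeR adjusted p = 0.528). When 1 library was left out it ranged from -0.78, without aged replicate 1, to -0.31, without aged replicate 2. Fbn2, on chromosome 18, encodes the fibrillin known mainly from development. It had 5, 0 and 0 counts in the young and 4, 2 and 0 counts in the aged libraries, where 3 counts, the limit that a count of 0 allows, stand for 0.0619 to 0.106 CPM. At this depth no difference in Fbn2 was detectable, and neither its fold change nor its ratio to Fbn1 is given.

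Mfap4, on chromosome 11 from 61485431 to 61488900 on the plus strand, encodes a microfibril-associated glycoprotein that binds elastic fibres. Its levels were 401, 494 and 528 CPM in young and 802, 515 and 653 CPM in aged aorta. Aged replicates 1 and 3 were above every young library and aged replicate 2 was between young replicates 2 and 3. The log2 fold change was 0.47 with a standard error of 0.21 (edgeR adjusted p = 0.505), and 0.62 without aged replicate 2 (adjusted p = 0.267). Emilin1, on chromosome 5 from 30913402 to 30921277 on the plus strand, encodes a glycoprotein at the interface of elastin and microfibrils. It was at 195, 158 and 183 CPM in young and at 187, 107 and 143 CPM in aged aorta, a log2 fold change of -0.30 with a standard error of 0.23 (adjusted p = 0.662), and of -0.12 without aged replicate 2. Its libraries followed the order of those of Fbn1 closely in the aged group, with aged replicate 1 at the young level and aged replicate 2 lowest in both genes.

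The fibulin genes differed widely among themselves. Fbln2, on chromosome 6 from 91212455 to 91272540 on the plus strand, encodes fibulin-2, a matrix protein that binds tropoelastin and fibrillin. It was at 65.8, 77.4 and 70.0 CPM in the young libraries and at 196, 59.4 and 282 CPM in the aged ones. Aged replicates 1 and 3 were above all young libraries and aged replicate 2 was below all of them. Its log2 fold change was 1.33 with a standard error of 0.49, the largest standard error of the 9 members tested, and its adjusted p was 0.437 by edgeR and 0.111 by DESeq2. Leaving out aged replicate 2 gave 1.75 with an edgeR adjusted p = 0.0344, in a fit that called 110 genes, or 0.642% of 17147 tested. Fbln2 was the only member called in that fit. Without aged replicate 3 the log2 fold change was 0.85, and without young replicate 1 it was 1.29 (adjusted p = 0.473).

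Fbln5, on chromosome 12 from 101746565 to 101819055 on the minus strand, encodes fibulin-5, which tethers elastin to cells and to Loxl1. Its levels were 830, 474 and 489 CPM in young and 693, 610 and 554 CPM in aged aorta. Young replicate 1 was the highest library and the other young libraries were the lowest, so that the aged values all lay inside the young range. For Fbln5 the log2 fold change of 0.05 had a standard error of 0.25 (edgeR adjusted p = 0.956), and without young replicate 1 it was 0.37 (adjusted p = 0.474). Efemp2, on chromosome 19 from 5473954 to 5482517 on the plus strand, encodes fibulin-4, which brings Lox to tropoelastin. It was at 89.9, 76.0 and 83.5 CPM in young and at 129, 72.7 and 87.0 CPM in aged aorta, with aged replicate 1 above and aged replicate 2 below every young library. The log2 fold change was 0.21 with a standard error of 0.23 (adjusted p = 0.761), and it was -0.023 when libraries were scaled by their totals alone. Without aged replicate 2 it was 0.38 (adjusted p = 0.477).

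The lysyl oxidase genes also overlapped between the ages. Lox, on chromosome 18 from 52516067 to 52529867 on the minus strand, encodes the founding member of the family. It was at 241, 136 and 198 CPM in young and at 137, 196 and 124 CPM in aged aorta. Young replicate 1 was the highest library and aged replicate 3 the lowest, and the other libraries of the 2 ages lay among each other. Lox had a log2 fold change of -0.33 with a standard error of 0.27 (edgeR adjusted p = 0.679), of -0.12 without young replicate 1 (adjusted p = 0.886) and of -0.55 without aged replicate 2 (adjusted p = 0.409). Loxl1, on chromosome 9 from 58287738 to 58313186 on the minus strand, encodes the family member tied to fibulin-5 and to upkeep of elastic fibres in adults. It was at 247, 320 and 345 CPM in young and at 418, 260 and 305 CPM in aged aorta, a log2 fold change of 0.11 with a standard error of 0.23 (adjusted p = 0.882). Aged replicate 1 was its highest library and young replicate 1 its lowest. Without young replicate 1 its log2 fold change was -0.013, and without aged replicate 2 it was 0.25. The log2 ratio of Lox to Loxl1 had a young mean of -0.69 ± 0.61 (SD, n = 3) and an aged mean of -1.10 ± 0.63 (SD, n = 3), and the groups overlapped. The difference of -0.41 was -0.08 without young replicate 1 and -0.76 without aged replicate 2.

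**Figure D2:**
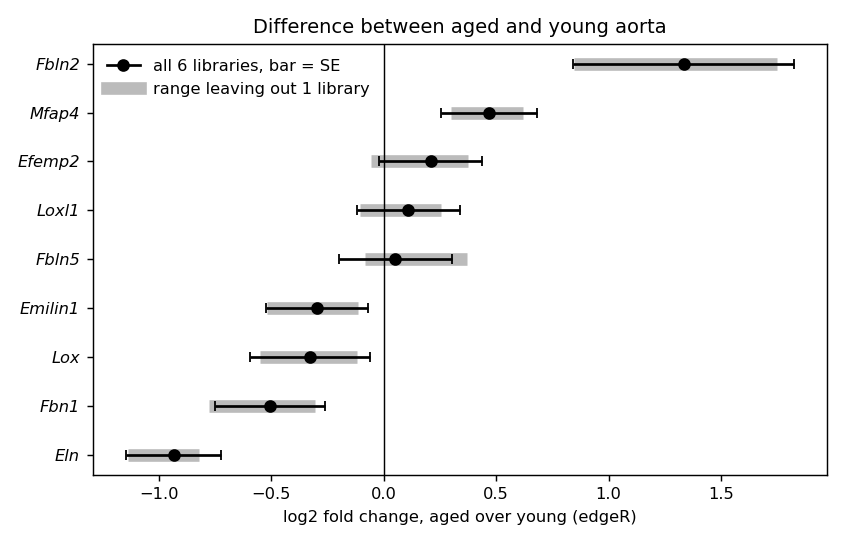
The horizontal axis gives, for each of the 9 members tested, the aged level over the young level as a log2 fold change, drawn as a point with its standard error, and the grey bar spans the values found when 1 library at a time was left out. The grey bars of Eln, Fbn1, Lox and Emilin1 lie below 0, those of Fbln2 and Mfap4 lie above 0, and those of Fbln5, Efemp2 and Loxl1 cross it.

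Levels between genes were compared as FPKM, which divides by gene length. In young aorta Eln led at 611 ± 12.2 FPKM (SD, n = 3), above Mfap4 at 242 ± 39.0 FPKM (SD, n = 3), and neither range overlapped the next. Loxl1 at 90.2 and Fbln5 at 84.1 FPKM overlapped each other, as did Lox at 39.0 with Emilin1 at 35.3 FPKM and Emilin1 with Fbn1 at 29.0 FPKM. Efemp2 at 21.4, Fbln2 at 10.9 and Fbn2 at 0.00199 FPKM closed the order. In aged aorta the FPKM of Mfap4 was 287 ± 64.3 (SD, n = 3) and that of Eln 275 ± 68.8 (SD, n = 3), with overlapping ranges. From Lox at 26.8 through Emilin1, Fbln2 and Efemp2 down to Fbn1 at 17.5 FPKM, every aged range overlapped that of the next gene. Fbln2, next to last in young aorta at 9.83 to 11.9 FPKM, reached 35.8 FPKM in the highest aged library and 7.97 FPKM in the lowest.

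The length behind FPKM mattered for this order. For every member with a usable value the FPKM and counts implied a length between 1.099 and 1.108 times the union of all annotated exons, so that FPKM divided by this union up to 1 common factor. For Eln the union is 8098 bases, 2.10 times its longest annotated transcript of 3853 bases, the largest such ratio among the 10 members. With CPM per kilobase of the longest transcript, Eln had a young mean of 1308 ± 58.3 (SD, n = 3) and an aged mean of 684 ± 159 (SD, n = 3), and Mfap4 had means of 268 ± 37.1 and 371 ± 81.2 (SD, n = 3 each). On this scale, which was chosen after the FPKM had been seen, Eln was above Mfap4 in all 6 libraries.

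**Figure D3:**
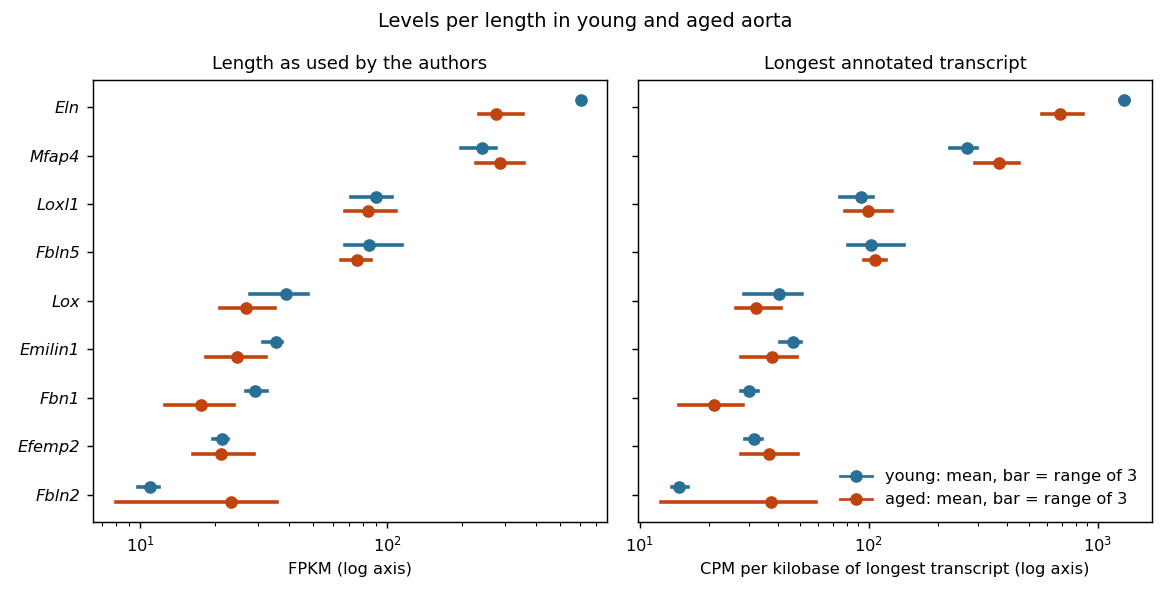
Levels per length of 9 members on a log axis, as FPKM on the left and as CPM per kilobase of the longest annotated transcript on the right, with a point for the mean and a bar for the range of the 3 libraries of each age. On the left the aged ranges of Eln and Mfap4 overlap, and on the right they do not.

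Cell type markers differed between the libraries along with some of the members, and in bulk tissue fewer cells of a type and less RNA per cell cannot be told apart. All 7 fibroblast markers were higher in the aged group, at a median log2 fold change of 1.45, though 1 of them, Col1a1, was lower with library totals alone. Their sum was 1944 to 3006 CPM in young libraries. All 7 smooth muscle markers were lower, at a median log2 fold change of -0.44, and their sums were 32254 to 40198 CPM in young and 27985 to 33335 CPM in aged libraries. Neither list had a gene called by edgeR. DESeq2 called 2 of the 7 fibroblast markers, Pdgfra and Dpt, and 0 of the smooth muscle markers. It also called 2 of 4 macrophage markers, Csf1r and Mrc1, beside 2.26% of all genes it gave an adjusted p. Macrophage markers summed to 27.4 to 30.0 CPM in young and 42.2 to 88.8 CPM in aged libraries, and endothelial markers to 1536 CPM in aged replicate 3 against 312 to 454 CPM elsewhere. Lymphocyte markers summed to at most 2.05 CPM, with 3 of the 4 at 0 in some library. The part of these markers in the members' differences was not tested.

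**Figure D4:**
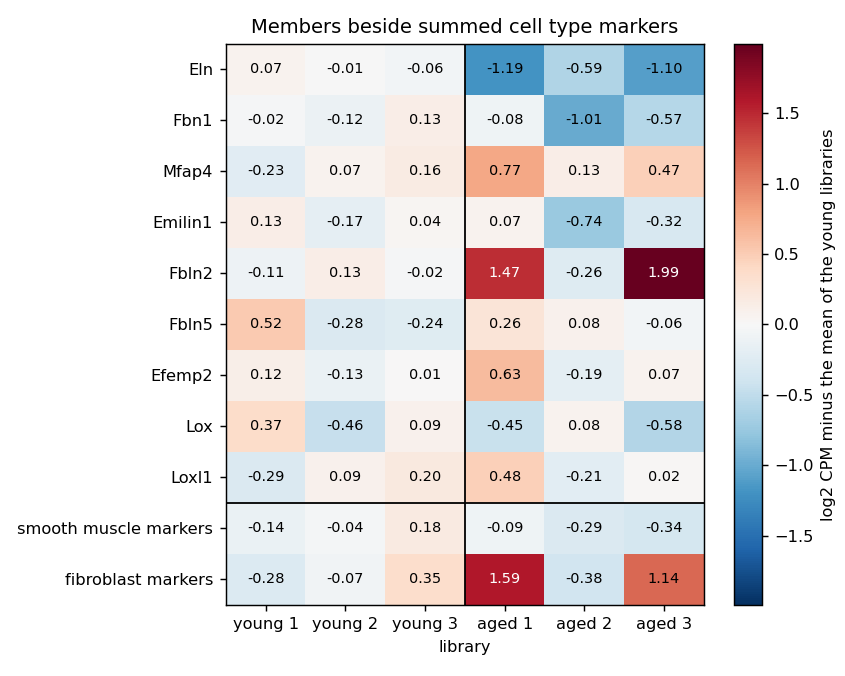
Each cell gives the log2 CPM of 1 member, or of the summed smooth muscle or fibroblast markers, in 1 library, minus the mean of the 3 young libraries, with red for higher and blue for lower. The fibroblast row is at 1.59 and 1.14 in aged replicates 1 and 3 and at -0.38 in aged replicate 2, and the Fbln2 row at 1.47, 1.99 and -0.26 in aged replicates 1, 3 and 2.

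Set against the mean log2 CPM of the fibroblast markers of the same library, Fbln2 was at -1.38, -1.29 and -1.65 in young and at -1.88, -1.43 and -0.91 in aged aorta. That ratio overlapped between the ages and its means differed by 0.03. Set against the smooth muscle markers, Fbln2 was higher by 1.50 on the log2 scale in aged aorta with no overlap, and by 2.15 without aged replicate 2. Eln set against the smooth muscle markers was at 1.66, 1.42 and 1.14 in young and at 0.70, 1.26 and 0.68 in aged aorta, lower by a mean of 0.53 with aged replicate 2 inside the young range.

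The fibroblast markers relative to the smooth muscle markers were themselves higher by 1.47 on the log2 scale in aged aorta, so that most genes were higher against the one reference and lower against the other. Relative to the smooth muscle markers 85.9% of all genes tested were higher in aged aorta, and 31.3% were higher without overlap. Of the 9 members 7 were higher and 2 lower, and 3 of them, Fbln2, Mfap4 and Loxl1, were higher without overlap, a share near that of all genes. The members split 6 higher and 3 lower without young replicate 2 or without aged replicate 1.

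Relative to the fibroblast markers 93.7% of all genes tested were lower in aged aorta, and 11.9% were lower without overlap. Of the 9 members 8 were lower and 1 higher, and Eln, Fbn1 and Emilin1 were lower without overlap. Without aged replicate 2, the aged library with the lowest fibroblast markers, 8 members were lower without overlap. The share of all genes in that setting was not computed, so this count is not read as a trait of the members. Eln differed by -1.99 on the log2 scale against the fibroblast markers, by -2.82 without aged replicate 2 and by -1.44 without aged replicate 1.

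Across the 6 libraries, which share the age groups and the library composition, some pairs of members had levels that went together. The log2 CPM of Fbn1 and Emilin1 had a Pearson r of 0.95, Fbln2 and Mfap4 of 0.81, and Mfap4 and Loxl1 of 0.81. Eln went opposite to Mfap4 with an r of -0.89 and to Fbln2 with an r of -0.84. The log2 CPM of Lox had an r of -0.78 with that of Fbln2 and of -0.60 with that of Loxl1. With the fibroblast markers the r was 0.94 for Fbln2, 0.92 for Mfap4, 0.79 for Efemp2 and -0.86 for Eln, and with the smooth muscle markers it was 0.78 for Eln. Each of these coefficients kept its sign without young replicate 1 and without aged replicate 2, and that of Lox and Loxl1 was -0.35 without young replicate 1. By rank (Spearman) the coefficient was 0.83 for Fbn1 and Emilin1, 0.66 for Fbln2 and Mfap4, and 0.71 for Mfap4 and Loxl1. Eln had -0.94 with Mfap4 and -0.54 with Fbln2, and Lox had -0.77 with Fbln2 and -0.31 with Loxl1. These values describe 6 libraries and were not tested.

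Of 9144 genes that averaged 10 CPM or more, the 5 whose log2 CPM was most like that of Eln over the 6 libraries were Fgfr2, Pnck, U2surp, Ky and B4galt6, with r between 0.986 and 0.998. Fgfr2, a fibroblast growth factor receptor gene, was at 78.8, 73.0 and 75.1 CPM in young and at 38.2, 53.1 and 40.8 CPM in aged aorta, the order of the Eln values in the aged group. Ky, known from skeletal muscle, was at 39.2, 32.7 and 29.8 CPM in young and at 13.4, 19.0 and 12.4 CPM in aged aorta. These genes were picked for following Eln over the same libraries, so that their difference between the ages came with the choice and was not tested.

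The other 25 elastic fibre and microfibril genes listed gave 24 that could be tested, 13 higher and 11 lower in aged aorta. Their median log2 fold change was 0.15, or -0.09 with library totals alone, where 11 were higher and 13 lower. None was called by edgeR, and 5 higher and 1 lower passed at an unadjusted p under 0.05 beside 10.4% of all genes. DESeq2 called 2, both higher, beside 2.26% of the genes it gave an adjusted p. These were Efemp1, which encodes fibulin-3 (19.5, 27.4 and 10.3 CPM in young, 71.9, 29.6 and 93.6 CPM in aged aorta, DESeq2 adjusted p = 0.0164), and Adamtsl2, which encodes a fibrillin-binding protein (19.9, 33.5 and 31.7 CPM in young, 98.0, 39.0 and 69.0 CPM in aged aorta, DESeq2 adjusted p = 0.0366). In both genes aged replicate 2 was the aged library nearest to the young ones. Mfap2, a microfibril gene, had a log2 fold change of 0.95 (edgeR adjusted p = 0.429).

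The most abundant genes of that list were Ltbp1, Ltbp4 and Ltbp3, which encode latent TGF-beta binding proteins. Ltbp1 averaged 802 ± 20.9 CPM (SD, n = 3) among young and 885 ± 117 CPM (SD, n = 3) among aged mice, and Ltbp4, whose product also takes part in elastin assembly, at 820 ± 122 and 789 ± 201 CPM (SD, n = 3 each). Ltbp3 was lower without overlap, at 462, 526 and 479 CPM in young and 399, 391 and 353 CPM in aged aorta (log2 fold change -0.36, edgeR adjusted p = 0.470). Adamts10, a microfibril-associated metalloprotease gene, and Loxl2, a further lysyl oxidase gene, had log2 fold changes of -0.49 and -0.38 (adjusted p = 0.517 and 0.625).

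Among 17 genes for enzymes that can cut elastin and for their inhibitors, 12 could be tested and all 12 were higher in aged aorta, or 9 of 12 with library totals alone. Of all genes tested 8654 of 16612 were higher. The young and aged values overlapped in all 12, while 16.5% of all genes tested had no overlap. The median log2 fold change of the 12 was 0.54, and it was 0.30 with library totals alone, 0.37 without aged replicate 1 and 0.90 without aged replicate 2, where 13 could be tested. With edgeR 0 of them were called, and 3 passed at an unadjusted p under 0.05 beside 10.4% of all genes. DESeq2 called 1, Timp1, beside 2.26% of the genes it gave an adjusted p. Timp1, an inhibitor of matrix metalloproteases, was at 13.9, 14.3 and 11.7 CPM in young and at 94.0, 10.7 and 58.5 CPM in aged aorta (log2 fold change 2.03, adjusted p = 0.400 by edgeR and 0.0336 by DESeq2). Aged replicate 2 was below all young libraries in this gene, as it was in Fbln2. Ctss, the gene of the elastin-cutting cathepsin S of macrophages, was at 5.99, 2.93 and 4.05 CPM in young and at 20.9, 5.88 and 12.2 CPM in aged aorta (log2 fold change 1.58, edgeR adjusted p = 0.390). The most abundant genes were the inhibitors Timp3 and Cst3 and the protease Ctsb, at 1285 ± 87.4, 698 ± 70.7 and 765 ± 115 CPM (SD, n = 3 each) in young and 1724 ± 390, 1126 ± 419 and 862 ± 103 CPM (SD, n = 3 each) in aged aorta. The neutrophil and macrophage elastase genes Elane, Prtn3, Ctsg and Mmp12 stayed under the count filter, and Mmp7 had 0 counts in every library.

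Some members share exon bases with a gene on the opposite strand, and the sources used here do not say whether counting used strand. Efemp2 shares 173 bases with Mus81, which had 398 to 830 counts per library. Mfap4 shares 89 bases with Mapk7 at 457 to 782 counts, and Fbn1 shares 2442 bases with Gm9913 at 2 to 49 counts. If counting ignored strand, reads of each pair cannot be told apart there, against 2457 to 4355 counts for Efemp2 and 17206 to 26670 for Mfap4.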

How the data were processed

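The authors deposited whole-number counts per gene and FPKM (counts per length and library total) for 6 aorta libraries. The submitters' processing notes name mm10. The aligner, counting tool and annotation are not given in the sources used here. Positions are from GENCODE M21 (GRCm38). The replicates are separately labelled libraries, taken as separate mice, and FPKM followed the counts within each gene with an SD of 0.0171 log2 over 14002 genes.

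Counts were tested in R 4.3.3 with edgeR 4.0.16 (filterByExpr by group with a minimum count of 10 and a minimum total of 15, TMM, quasi-likelihood without covariates), with Benjamini-Hochberg adjustment over all 16612 genes tested and a threshold of 0.05. The standard error is the size of the log2 fold change divided by the square root of F. Scripts were tested on simulated data. A count of 0 was read as up to 3 counts, which covers counting error only.

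The members and the gene and marker lists were chosen with earlier results of these data known. Named are all members, the 3 most abundant genes of each further list, up to 3 with the smallest p in each direction, and the 5 genes most like Eln. Alternatives were RLE scaling, library totals alone, removal of mitochondrial genes, no filter or at least 10 counts in every library, a replicate block, DESeq2 1.42.0, limma 3.58.1 on log2-transformed FPKM (pseudocount 1 or 0.1), robust estimation, TMM-scaled FPKM, and each library left out. CPM per kilobase of the longest transcript, and correlations without young replicate 1 or aged replicate 2, were added after the data were seen.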

Additional observations from a re-analysis of the deposited data

How the results depend on the processing

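Of 144 alternative values of the members' log2 fold changes 127 kept direction and side of the threshold. All 154 alternative values of the ratios kept their direction or moved by less than 1 SD. Leaving out 1 of 3 libraries can hardly move a mean that far, so this count is no check. Some ratios near 0 changed sign. The Efemp2 to Fbln5 difference was 0.076, and -0.13 without young replicate 1. That of Fbn1 to the smooth muscle markers was -0.12, and 0.099 without aged replicate 2. With DESeq2 the counts of calls were 338 genes, 1 member (Eln, log2 fold change -0.93), 2 other elastic fibre genes and 1 elastin-degrading or inhibitor gene, against 0 of each with edgeR. Leaving out 1 library gave 0 to 110 genes called, 0 to 1 member, 0 to 1 other elastic fibre gene and 0 to 1 elastin-degrading or inhibitor gene, with calls only without aged replicate 2 (Fbln2, Fbln1 and Timp1 in the lists). Fbln5, Efemp2 and Loxl1 changed sign in some settings: with library totals alone they were -0.18, -0.023 and -0.13, with limma and a pseudocount of 1 they were -0.12, -0.047 and -0.12, and with a pseudocount of 0.1 they were -0.13, -0.050 and -0.12. Library totals alone put the median of all genes at -0.22 and limma at -0.12 and -0.19, and each of the 3 genes was within 0.2 of that median. With 1 library left out they ranged from -0.082 to 0.37, -0.059 to 0.38 and -0.10 to 0.25. With the longest transcript as length, 4 of 10 members kept their rank in young and 2 of 10 in aged aorta. Deviations from the group means had an r of 0.0786, 0.117 and 0.0957 between same-numbered young and aged libraries. Libraries of unlike number were not compared, so pairing by replicate number was not tested. A replicate block called 0 genes (0 members), with 1782 genes at an unadjusted p under 0.05 beside 1723 without the block.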

Other observations

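The 5 genes whose log2 CPM was most opposed to that of Eln over the 6 libraries were Ccnd1, Cebpd, Ube2m, Nbl1 and Tmem9b, chosen after their values were seen, with r between -0.998 and -0.990. Ccnd1, which encodes the G1 cyclin D1, was at 8.61, 11.0 and 11.0 CPM in young and at 49.3, 23.8 and 45.2 CPM in aged aorta. Cebpd, a transcription factor gene, was at 14.0, 17.9 and 19.6 CPM in young and at 70.9, 37.9 and 70.7 CPM in aged aorta. In both genes the aged libraries lay above all young ones and aged replicate 2 was the lowest of the aged libraries, where Eln was highest. Their difference between the ages came with the choice and was not tested.

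Thsd4, a microfibril gene outside the naming rule and chosen after its values were seen, varied widely within both ages, at 72.0, 397 and 505 CPM in young and at 44.2, 348 and 262 CPM in aged aorta. Replicate 1 was the lowest library of each age.

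Markers of proliferating cells summed to 2.50 to 5.52 CPM in young and 10.5 to 19.6 CPM in aged libraries. All 3 were called higher by DESeq2, beside 2.26% of the genes it gave an adjusted p, and none by edgeR. Cardiac muscle markers summed to 207 CPM in young replicate 1 and to 36.1 to 49.2 CPM in the other libraries. All 3 had a lower mean in the aged group, and 1 of them, Myh6, did not overlap between the ages, beside 16.5% of all genes tested. For Tnnt2 the lower mean rested on young replicate 1. It was at 102, 27.9 and 20.5 CPM in young and at 39.1, 35.9 and 40.2 CPM in aged aorta. Myh6 was at 79.7, 8.22 and 13.1 CPM in young and at 7.49, 0.875 and 2.90 CPM in aged aorta (edgeR adjusted p = 0.414).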
